A study of Mus musculus with 6 samples.

Results

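The 49 genes described here act in the G2 phase and mitosis of the cell cycle and were taken by symbol from a list of kinase, kinetochore, spindle and cytokinesis genes. All 49 were found among the 24421 genes of the deposited count table, and all 49 were among the 13411 genes that passed a filter on low counts. They were measured by RNA-seq in sorted Lin-CD117+ bone marrow cells, which hold stem and progenitor cells, from female CByB6F1 mice aged 2 to 5 months. The mice were normal hybrids, either untreated (pools 1 to 3) or RUX-treated (pools 4 to 6), and no other allele or agent is labelled. RUX is ruxolitinib, which inhibits the kinases JAK1 and JAK2. Each library held cells of 2 to 3 mice of 1 group, so values of single animals cannot be seen. Dose and length of treatment are not stated in the labels. The comparison asks how the transcriptomes of these progenitors differ with and without the drug, here for the machinery of cell division.

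Cells enter mitosis when cyclin-dependent kinase 1 (CDK1), bound to cyclin A or cyclin B, is switched on by CDC25 phosphatases. Polo and Aurora kinases then help to build the spindle, and the checkpoint delays anaphase until the kinetochores are attached. The anaphase-promoting complex then releases the sister chromatids, and cytokinesis divides the cell. Many of these genes are transcribed mainly in late S and G2 phase, so their transcripts are abundant in dividing cells and scarce in resting ones. Cytokine receptors of blood progenitors, several of which signal through JAK2, are known to drive proliferation.

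The promoters of these genes share letters that the choice of the list did not use, and 8 are shown because they hold, or lack, elements known to regulate the G2 and M programme. The cell-cycle homology element (CHR) is bound by the MuvB complex, and the CCAAT box by NF-Y. The CHR was searched as TTTGAA or TTCGAA and the box as CCAAT, on both strands, where TTTGAA reads TTCAAA and CCAAT reads ATTGG; the motifs may share a base at their ends and were counted separately. The windows run from 250 bases before to 50 bases after the gene start (RefSeq, GRCm38.p6, the assembly of mm10), and 42 of the 49 genes had at least 1 window. A CHR was present for 32 of these 42 genes (76.2%), against 16.6% of the 10179 tested genes with a window and 21.7% of all genes with one. A CCAAT box was present for 31 (73.8%), against 42.7% and 41.1%. Both motifs were present for 28 (66.7%), against 6.78% and 8.61%. A match describes letters in a window, and binding was not measured. Each sequence below with a CHR has it before the start used. Other members, such as Aurka, Plk1 and Bub1, have it only after the start, so the sequences do not stand for all 49 genes. The 100 bases before the start follow, 5′ to 3′ on the strand of the gene, with matches in capitals. Where a gene had several starts, the window with the most CHR matches in these bases was used. For Prc1 this was a later start, so the last bases shown lie past 80294451, where its counted exons begin. Mad2l1 has neither motif in its window, which ends at 66535270. Its counted exons begin at 66535468, and the bases between were not searched.
Cdk1 (chr10:69352913-69353012, minus strand): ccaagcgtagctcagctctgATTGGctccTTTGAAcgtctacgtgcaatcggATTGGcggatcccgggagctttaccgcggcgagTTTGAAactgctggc
Cdc20 (chr4:118437344-118437443, minus strand): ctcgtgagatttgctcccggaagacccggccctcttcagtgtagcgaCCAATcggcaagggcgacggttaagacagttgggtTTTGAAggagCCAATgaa
Espl1 (chr15:102296193-102296292, plus strand): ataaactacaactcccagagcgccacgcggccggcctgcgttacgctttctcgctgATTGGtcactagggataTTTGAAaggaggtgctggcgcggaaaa
Bub3 (chr7:131560270-131560369, plus strand): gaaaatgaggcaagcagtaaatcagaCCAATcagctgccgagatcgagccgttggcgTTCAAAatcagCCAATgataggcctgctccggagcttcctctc
Kif11 (chr19:37376282-37376381, plus strand): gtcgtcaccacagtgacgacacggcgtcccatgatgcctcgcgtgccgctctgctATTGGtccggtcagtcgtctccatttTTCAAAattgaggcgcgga
Prc1 (chr7:80294376-80294475, plus strand): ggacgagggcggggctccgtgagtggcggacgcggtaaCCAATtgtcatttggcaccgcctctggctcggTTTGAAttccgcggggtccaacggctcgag
Top2a (chr11:99024190-99024289, minus strand): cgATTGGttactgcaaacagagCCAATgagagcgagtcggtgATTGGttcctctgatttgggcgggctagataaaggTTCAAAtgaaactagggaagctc
Mad2l1 (chr6:66535121-66535220, plus strand): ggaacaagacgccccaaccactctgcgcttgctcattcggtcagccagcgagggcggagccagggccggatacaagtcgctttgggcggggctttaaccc

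The test between the groups called none of the mitotic genes, and for 48 of the 49 the range within at least 1 group exceeded the difference of the group means. The exception was Bub3. The share of all tested genes with such a range was not computed. The log2 fold change (RUX minus untreated) was above 0 for 22 of the 49 genes and below 0 for 27, while 49.2% of all tested genes lay above 0. The median of the 49 was −0.01, and that of all tested genes −0.004. Single genes ran from −0.31 for Mad2l1 to 0.25 for Hjurp. By edgeR's quasi-likelihood test with Benjamini-Hochberg adjustment over all tested genes, 0 of 49 had an adjusted p under 0.05 (0% of all tested genes did), and each adjusted p was 1. At an unadjusted p under 0.05 the members' count was 0 in edgeR, in DESeq2 and in limma-voom, and 1 in limma-voom with quality weights, by which 5.8% of all genes were under that threshold. In edgeR 0.85% of all genes were higher and 1.04% lower at that threshold. The RUX pools all lay above the untreated pools for 1 member, Bub3 (2.99% of all tested genes), and all below them for 0 (3.25%). The 95% interval of the fold change stayed within 2-fold for all 49 genes, against 80.9% of all tested genes. It stayed within 1.5-fold for 43 (87.8%), against 56.8% of all tested genes. The part of count depth in these shares was not tested. In these bulk pools, a change in the share of dividing cells could not be told apart from a change in mitotic RNA per cell.

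**Figure D1:**
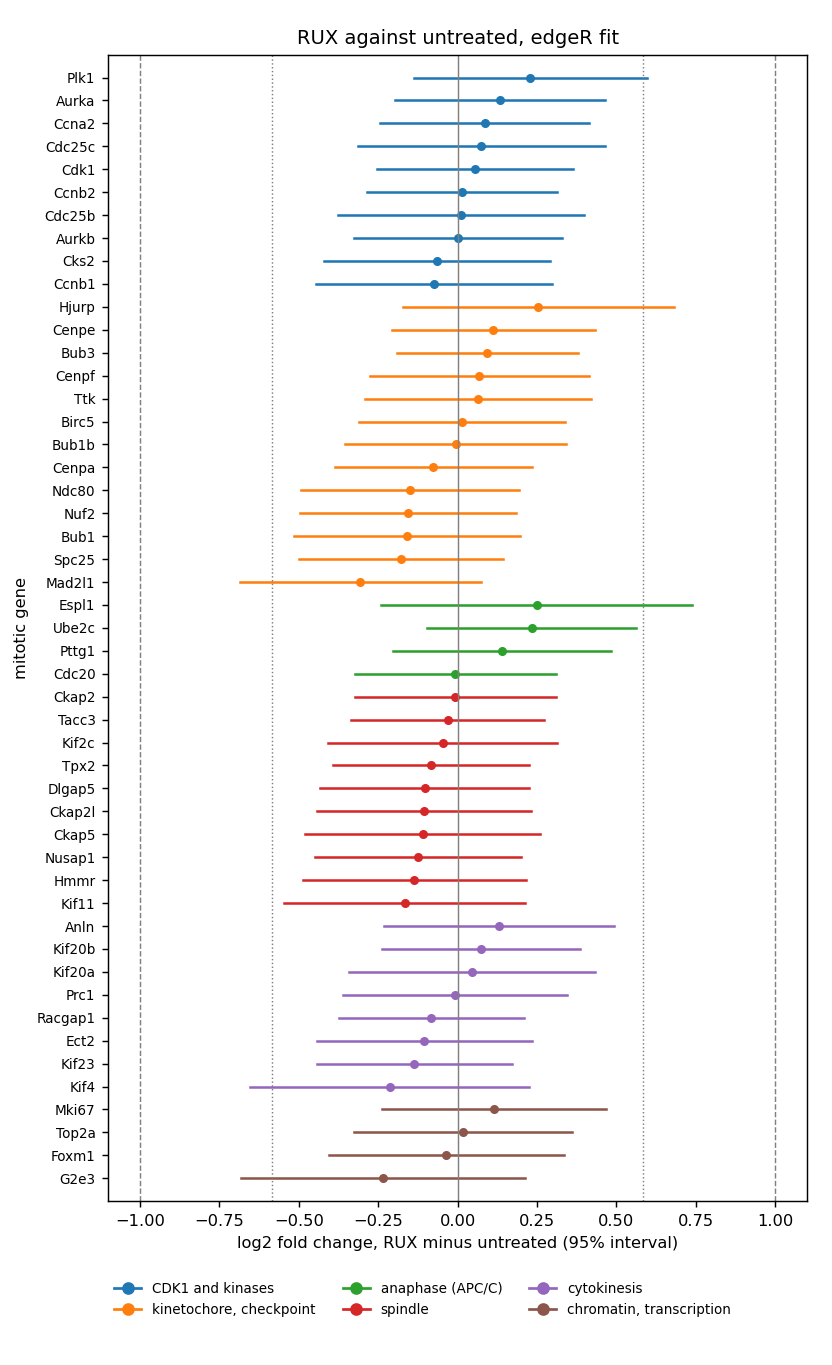
Log2 fold change (RUX minus untreated) of each of the 49 mitotic genes on the horizontal axis, with its 95% interval from the edgeR fit, coloured by role; dashed lines mark 2-fold and dotted lines 1.5-fold. Every interval crosses 0 and lies within 2-fold, and the 10 spindle genes have values from −0.17 to −0.01.

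Libraries held 27354768 to 48747137 counted read pairs, and the untreated libraries were the shallower group. The sort antigen gene Kit stood at 191 to 476 counts per 1000000 read pairs (CPM) of the whole library. The T cell antigen genes Cd3e and Cd8a were at or under 0.543 CPM, while the B lineage gene Cd79a was detected at 54.5 to 89.6 CPM. On the first principal component of all tested genes (39.7% of the variance), untreated pool 3 (24.1) and RUX pool 4 (19.4) stood apart from the others (−16.5 to −3.04).

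CDK1, its cyclins and the mitotic kinases comprised 10 genes, 8 above and 2 below 0, with a median log2 fold change of 0.03 (−0.03 without RUX pool 6). Cdk1 encodes the kinase itself (chromosome 10, 69336635 to 69352912) and carries 2 CHR matches in the sequence shown. Untreated pools 1, 2 and 3 held 172, 147 and 189 CPM of it, against 177, 168 and 182 CPM for RUX pools 4, 5 and 6, and per-pool values below keep this order. The RUX values lay inside the untreated range, and the log2 fold change was 0.06 ± 0.14 (SE), from 3 against 3 pools as for every SE that follows. Cyclin A2, encoded by Ccna2, had 234, 260 and 208 CPM untreated, against 229, 230 and 286 CPM with RUX. Cyclin B1, encoded by Ccnb1, had 175, 144 and 134 CPM untreated, against 118, 134 and 177 CPM with RUX. RUX pool 6 was the highest pool for both cyclins, and for Ccnb1 RUX pool 4 was the lowest.

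Plk1, the polo kinase of centrosome maturation and spindle assembly (chromosome 7, 122159437 to 122169875), had the smallest unadjusted p of this role (0.202). Its untreated pools were close together at 63.9, 63.7 and 61.8 CPM, and its RUX pools, at 58.2, 70.4 and 93.2 CPM, lay on both sides of them. The log2 fold change was 0.23 ± 0.17 (SE), a fold of 1.17 (95% interval 0.909 to 1.51), and it was 0.03 without RUX pool 6. Aurka encodes the Aurora kinase of spindle poles and read 77.1, 69.1 and 79.8 CPM untreated, against 72.1, 77.8 and 98.1 CPM with RUX. RUX pool 6 was above the other 5 pools, and the log2 fold change of 0.13 ± 0.15 (SE) was −0.01 without it. Aurkb, the kinase of the chromosomal passenger complex, had 111, 99.9 and 126 CPM untreated, against 98.7, 110 and 128 CPM with RUX, and means of 112 ± 13 CPM and 112 ± 14.8 CPM (± SD, n = 3).

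Kinetochore and checkpoint genes were split 6 above and 7 below 0, with a median of −0.01 (−0.12 without RUX pool 6). Mad2l1 encodes the checkpoint protein that inhibits CDC20 (chromosome 6, 66535468 to 66540991) and had the smallest unadjusted p of the 49 (0.105). It read 265, 158 and 219 CPM untreated, against 182, 168 and 169 CPM with RUX. The untreated pools enclosed the RUX pools. The log2 fold change was −0.31 ± 0.18 (SE), and −0.12 without untreated pool 1 or −0.47 without untreated pool 2. Hjurp, the chaperone that deposits the centromeric histone CENP-A, had 8.61, 12.6 and 9.53 CPM untreated, against 13, 10.9 and 12.8 CPM with RUX, and a log2 fold change of 0.25 ± 0.20 (SE), 0.14 without untreated pool 1 and 0.44 without untreated pool 2. Its exons overlap those of 3 other annotated genes, so its count is uncertain.

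Bub1, a checkpoint kinase, read 104, 90.1 and 75.8 CPM untreated, against 70.3, 76.1 and 95 CPM with RUX. Cenpe, a kinetochore motor, read 43.2, 52 and 44.5 CPM untreated, against 51.1, 45.1 and 54.9 CPM with RUX. The groups overlapped for both. Bub3, which brings BUB1 to kinetochores, was singled out after its values were seen. Its untreated pools held 240, 232 and 240 CPM, and its RUX pools 252, 262 and 247 CPM, which all lay higher. The highest of its 6 values was 1.13 times the lowest, the narrowest span of the 49 genes, and the log2 fold change was 0.09 ± 0.13 (SE) with an unadjusted p of 0.491.

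Of the 4 genes of anaphase onset, 3 lay above 0, with a median of 0.19 (0.08 without untreated pool 1 and 0.09 without RUX pool 6). Ube2c, the ubiquitin-conjugating enzyme of the anaphase-promoting complex (chromosome 2, 164769929 to 164772902), had 110, 145 and 146 CPM untreated, against 165, 145 and 161 CPM with RUX. Untreated pool 1 was the low pool, and RUX pool 5 met the upper untreated values. The log2 fold change was 0.23 ± 0.15 (SE), with an unadjusted p of 0.149, and it was 0.11 without untreated pool 1. Espl1 encodes separase, the protease that cuts cohesin (chromosome 15, 102296293 to 102324356), and had 30.3, 37 and 27.7 CPM untreated, against 24.2, 37.9 and 50.7 CPM with RUX. Its lowest and highest pools were both RUX pools, and their 2.1-fold span was the widest of the 49 genes. The log2 fold change of 0.25 ± 0.23 (SE) was −0.03 without RUX pool 6. Cdc20, an activator of the complex, had 141, 135 and 157 CPM untreated, against 129, 136 and 165 CPM with RUX, so the untreated values lay inside the RUX range.

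The 10 spindle genes all had log2 fold changes below 0, from −0.17 to −0.01 with a median of −0.11, where 50.8% of all tested genes lay below 0. Of 23 other spindle genes outside the list, 12 lay below and 11 above 0, with a median of −0.01. The smallest unadjusted p among them was 0.36, for Kif11. Kif11 encodes the motor that pushes spindle poles apart (chromosome 19, 37376403 to 37421859) and read 146, 121 and 101 CPM untreated, against 94.6, 98.9 and 134 CPM with RUX, a log2 fold change of −0.17 ± 0.18 (SE). That value was −0.03 without untreated pool 1 and −0.34 without RUX pool 6. Hmmr, a microtubule-binding protein of spindle poles, read 83.6, 76.3 and 70.3 CPM untreated, against 60.4, 63 and 85.9 CPM with RUX. For both genes RUX pools 4 and 5 lay under the untreated range and RUX pool 6 did not. Tpx2, which activates Aurora A on the spindle, read 115, 108 and 116 CPM untreated, against 97.2, 99.4 and 123 CPM with RUX, and its log2 fold change was −0.08 ± 0.14 (SE). The median of the 10 moved with single pools: it was −0.02 without RUX pool 4, −0.06 without RUX pool 5 and −0.23 without RUX pool 6. Leaving out untreated pool 1 gave −0.05, leaving out untreated pool 3 gave −0.06, and leaving out untreated pool 3 with RUX pool 4 gave −0.03.

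Cytokinesis genes were split 3 above and 5 below 0, with a median of −0.05. That median was 0.02 without untreated pool 1, 0.07 without RUX pool 4 and −0.16 without RUX pool 6. Kif4, a chromokinesin of the central spindle (chromosome X, 100626065 to 100727271), read 47.1, 45 and 47.3 CPM untreated, against 27.2, 39.4 and 53.5 CPM with RUX. The untreated pools were close together, and the RUX pools ran from below to above them. The log2 fold change of −0.21 ± 0.20 (SE) was 0.01 without RUX pool 4. Kif23, a subunit of centralspindlin, read 46.3, 47.1 and 43.4 CPM untreated, against 38.4, 40.5 and 45.5 CPM with RUX, and its log2 fold change was −0.14 ± 0.14 (SE). Prc1, which bundles midzone microtubules, read 83.9, 82.8 and 80.5 CPM untreated, against 65.4, 79.5 and 101 CPM with RUX. As for Plk1, its RUX values lay on both sides of a tight untreated group, and its log2 fold change was −0.01 ± 0.16 (SE).

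The remaining 4 genes were split 2 and 2, with a median of −0.01 (−0.17 without RUX pool 6 and 0.08 without RUX pool 4). Mki67, the proliferation marker that coats mitotic chromosomes (chromosome 7, 135689788 to 135716379), read 115, 134 and 154 CPM untreated, against 154, 119 and 164 CPM with RUX. The groups overlapped, and the fold was 1.08 (95% interval 0.847 to 1.38). Top2a, the topoisomerase that untangles sister chromatids, had 9887 to 20785 read pairs per pool and read 353, 388 and 303 CPM untreated, against 310, 334 and 412 CPM with RUX. The groups overlapped, with means of 348 ± 42.9 CPM and 352 ± 53.5 CPM (± SD, n = 3). Foxm1, a transcription factor of the G2 and M programme, read 29.9, 29.2 and 27.5 CPM untreated, against 23.5, 26.1 and 34.8 CPM with RUX, with means of 28.9 ± 1.24 CPM and 28.1 ± 5.91 CPM (± SD, n = 3). The RUX pools of Foxm1 spread more widely around nearly the same mean. G2e3, a ubiquitin ligase gene, read 49.3, 42.4 and 26.8 CPM untreated, against 29.7, 31.7 and 39.2 CPM with RUX, and its log2 fold change was −0.23 ± 0.21 (SE), −0.05 without untreated pool 1 and −0.45 without untreated pool 3. Its untreated pools spanned 1.84-fold, the widest untreated span of the 49 genes.

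**Figure D2:**
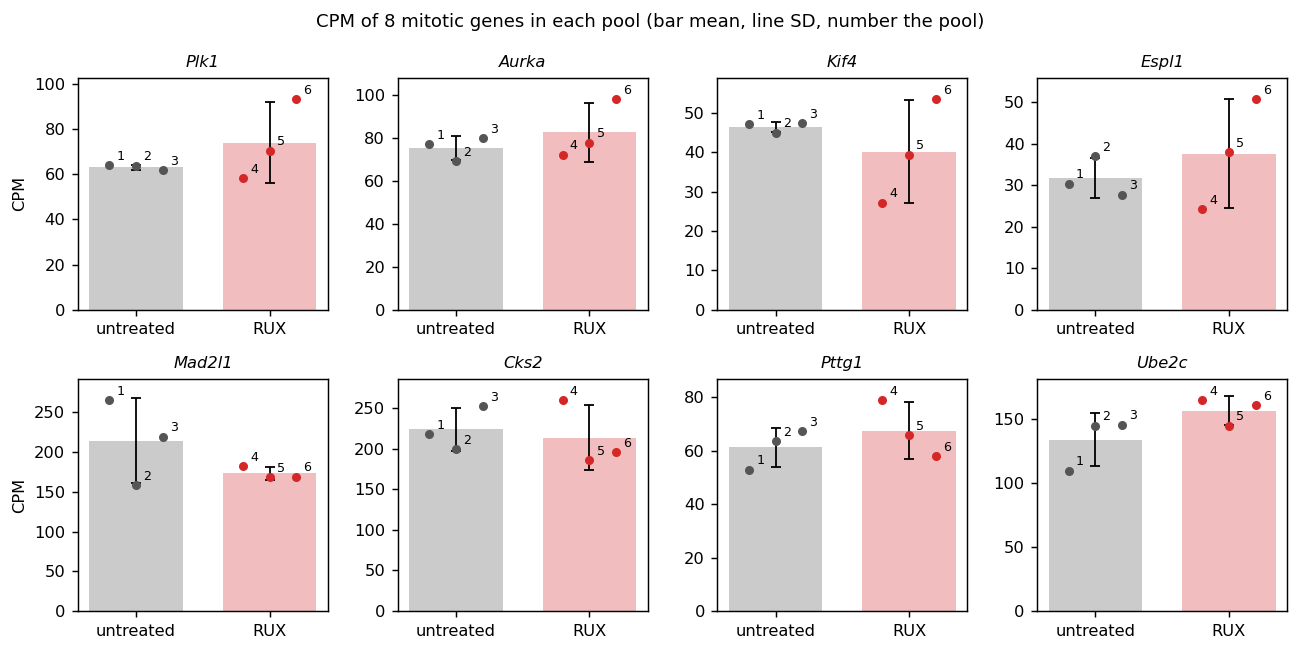
CPM of 8 mitotic genes (vertical axes), with bars at the group mean (n = 3), lines for the SD and points numbered by pool. The groups overlap for all 8 genes. Among the RUX pools, pool 6 is the highest and pool 4 the lowest for Plk1, Aurka, Kif4 and Espl1. Pool 4 is the highest of the RUX pools for Cks2, Pttg1, Ube2c and Mad2l1.

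Per length, in reads per kilobase of exon and 1000000 read pairs (RPKM), the mean level ran from 1.33 for Hjurp to 315 for Cks2, with a median of 24.0. Cks2 encodes a small CDK-binding subunit and stood at 322 RPKM untreated and 308 RPKM with RUX. The next levels were those of Cenpa (161 and 153 RPKM), Ube2c (143 and 169 RPKM), Ccnb2 (131 and 132 RPKM), Mad2l1 (124 and 100 RPKM) and Bub3 (116 and 123 RPKM). The order among these 5 differed between the groups. By the mean over the 6 pools, the lowest after Hjurp were Cenpf (3.25 and 3.41 RPKM) and Espl1 (4.77 and 5.67 RPKM), while with RUX alone G2e3 (4.99 RPKM) and Cdc25b (5.56 RPKM) lay below Espl1. Summed over the 49 genes, the untreated pools held 5240, 4920 and 5150 CPM and the RUX pools 4760, 4790 and 5580 CPM, so the lowest and the highest sums were both in RUX pools.

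For most mitotic genes the pools of either group, untreated or RUX, differed more from each other than the group means did. On the log2(CPM + 1) scale, the mean difference of the 49 genes from their own 6-pool averages was 0.05, −0.02 and −0.002 in untreated pools 1, 2 and 3. In RUX pools 4, 5 and 6 it was −0.13, −0.07 and 0.17. The untreated pools thus lay inside the span of the RUX pools. RUX pool 6 was the highest of the 6 pools for 27 members (55.1%, against 16.8% of all tested genes) and the lowest for 0 (17.5% of all). RUX pool 4 was the lowest for 26 members (53.1%, against 19.6% of all). RUX pools 6 and 4 had the highest and the lowest mean level of the 49 genes. Their ratio was above 1 for 40 of the 49 genes, with a median of 1.26. The ratio of RUX to untreated means, which averages pools, had a median of 0.993. The highest pool was a median of 1.23 times the lowest within the untreated group and 1.3 times within the RUX group. The range within the untreated pools exceeded the difference of group means for 45 genes, and the range within the RUX pools did so for 45. The shares of all tested genes with such ranges, or with a ratio of RUX pool 6 to RUX pool 4 above 1, were not computed. Over the 6 pools the median SD was 0.18 on this scale for the members and 0.20 for all tested genes.

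**Figure D3:**
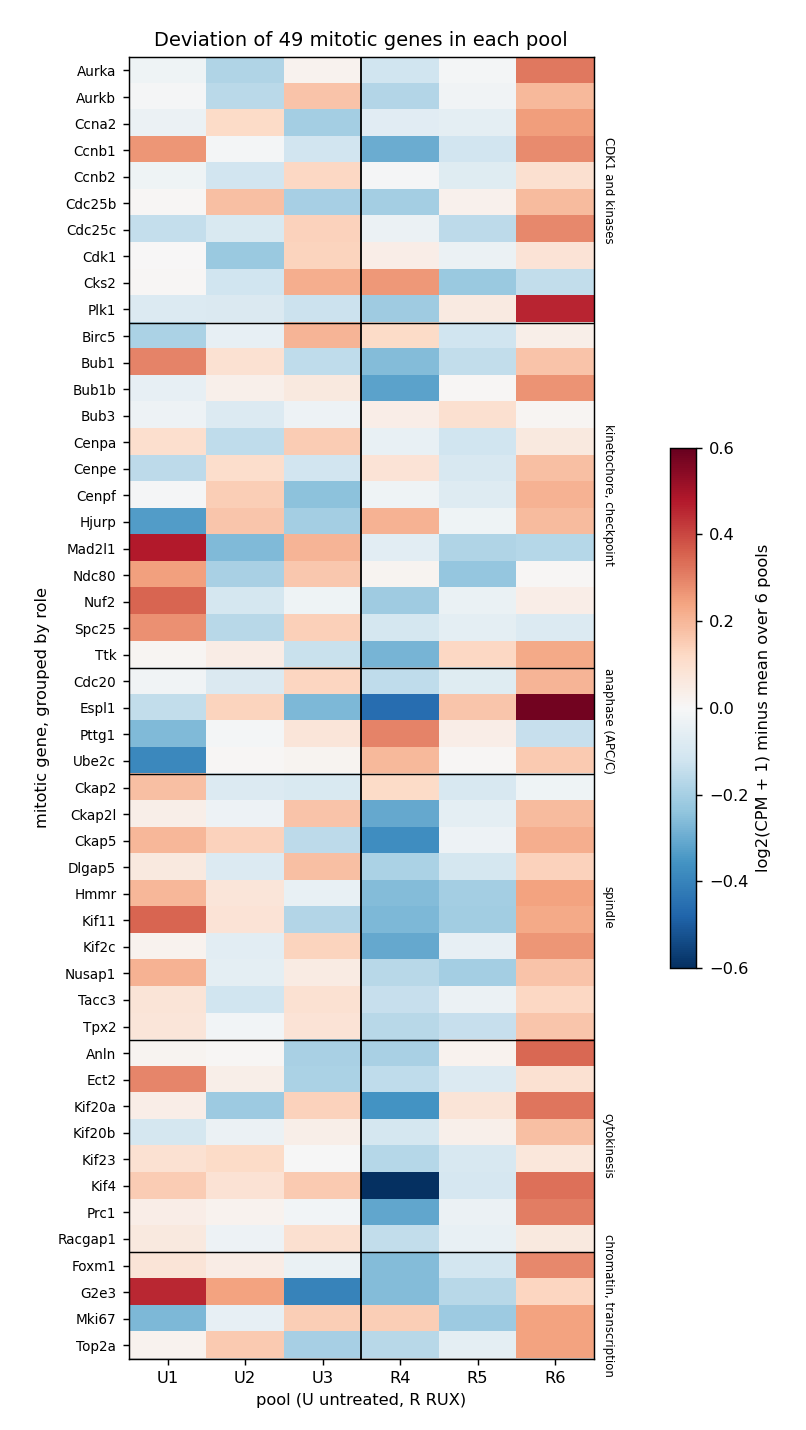
Deviation of log2(CPM + 1) from the mean over 6 pools (colour, red high and blue low) for each of the 49 mitotic genes (rows, by role) in each pool (columns). The highest value is in RUX pool 6 for 27 genes and the lowest in RUX pool 4 for 26.

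By role, the median ratio of RUX pool 6 to RUX pool 4 was 1.35 over the 8 cytokinesis genes, 1.34 over the 10 spindle genes and 1.29 over the 10 CDK1 and kinase genes. Of these, 8, 9 and 9 had a ratio above 1. The median was 1.33 for the 4 chromatin and transcription genes, with 4 above 1, 1.13 for the 4 anaphase genes, with 2 above 1, and 1.07 for the 13 kinetochore and checkpoint genes, with 8 above 1. Differences between roles were not tested. Cks2 and Pttg1, named after their values were seen, had the opposite order: 260 CPM in RUX pool 4 and 196 CPM in RUX pool 6 for Cks2, and 78.8 and 58 CPM for Pttg1, which encodes the separase inhibitor securin. In the kinetochore role untreated pool 1 was the highest pool for 5 of 13 genes: Bub1, Mad2l1 and the NDC80 complex genes Ndc80, Nuf2 and Spc25, whose products grip microtubules. RUX pool 6 was the highest for 15 of the 28 genes with both promoter motifs, 6 of the 14 with a window but not both, and 6 of the 7 with no window.

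**Figure D4:**
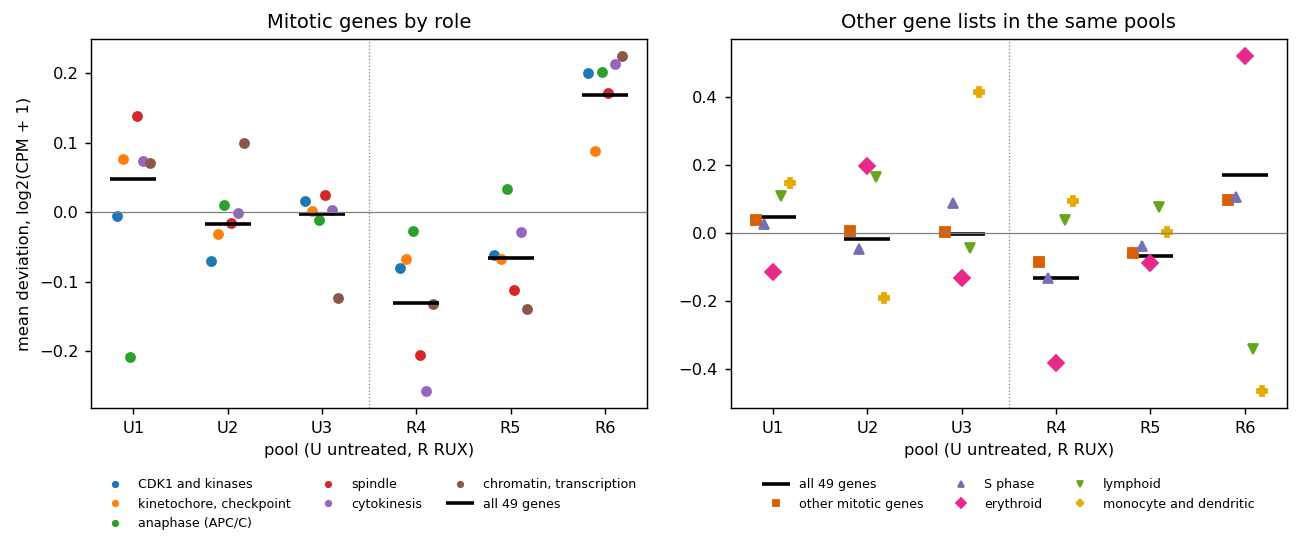
Mean deviation of log2(CPM + 1) per pool (vertical axis) for the 6 roles and all 49 mitotic genes (left) and for other gene lists (right). The 49 genes are lowest in RUX pool 4 (−0.13) and highest in RUX pool 6 (0.17), as are the erythroid markers (−0.38 and 0.52), while lymphoid and monocyte markers are lowest in RUX pool 6.

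Markers of cell types differed between the same pools. Erythroid markers stood at −0.12, 0.20 and −0.13 in untreated pools 1, 2 and 3 and at −0.38, −0.09 and 0.52 in RUX pools 4, 5 and 6. Their extremes were in the same pools as those of the mitotic genes. Of 15 erythroid markers 14 were tested, none of them was at 0 in any pool, and their summed level was 6530 to 7620 CPM untreated and 5990 to 9090 CPM with RUX. Klf1, an erythroid transcription factor, read 181, 241 and 207 CPM untreated, against 189, 227 and 323 CPM with RUX. RUX pool 6 was the lowest pool for lymphoid (−0.34) and for monocyte and dendritic markers (−0.46). Neutrophil markers varied most, at −1.54, 0.41 and 1.22 in untreated pools 1, 2 and 3 and at 0.63, 0.12 and −0.85 in RUX pools 4, 5 and 6, the reverse of the mitotic genes in RUX pools 4 and 6. Eosinophil (0.73 and −0.40) and basophil and mast markers (0.51 and −0.17) were likewise above 0 in RUX pool 4 and below 0 in RUX pool 6. Stem cell markers were lowest in untreated pool 3 (−0.55) and stood at 0.10 and 0.13 in RUX pools 4 and 6. The part of cell composition in the mitotic pattern was not tested.

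Gene length differed between pools as well. Among tested genes of at least 5 CPM, split into 10 classes of length, the median deviation in RUX pool 4 was 0.23 for the shortest class, −0.14 for genes of 4013 to 4821 bases, its lowest class, and −0.02 for the longest class. In RUX pool 6 these values were −0.17, 0.07 and 0.08. Untreated pool 3 ran from 0.21 in the shortest class to −0.22 in the longest. The median of genes of like length was therefore subtracted, a measure chosen after seeing the data. The 49 mitotic genes then stood at 0.03, −0.04 and 0.04 in untreated pools 1, 2 and 3 and at −0.09, −0.07 and 0.15 in RUX pools 4, 5 and 6. RUX pool 6 was then the highest pool for 22 members. RUX pool 4 was then the lowest for 18 and RUX pool 5 for 15, against 26 and 5 before the subtraction. For cytokinesis genes the value in RUX pool 4 was −0.26 before and −0.14 after this step, and for spindle genes −0.21 and −0.11. The values in RUX pools 4 and 6 after it were −0.09 and 0.23 for CDK1 and kinase genes, −0.14 and 0.15 for cytokinesis genes and −0.11 and 0.12 for spindle genes. They were −0.029 and 0.065 for kinetochore and checkpoint genes, −0.09 and 0.24 for anaphase genes and −0.06 and 0.15 for chromatin and transcription genes. The order of the roles by this difference was not that of the ratios above. RUX pool 5 then lay below RUX pool 4 for spindle (−0.12), kinetochore and checkpoint (−0.068) and chromatin and transcription genes (−0.16), and above it for the other roles. The RUX minus untreated difference of the 49 genes was −0.02 before and −0.01 after it.

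**Figure D5:**
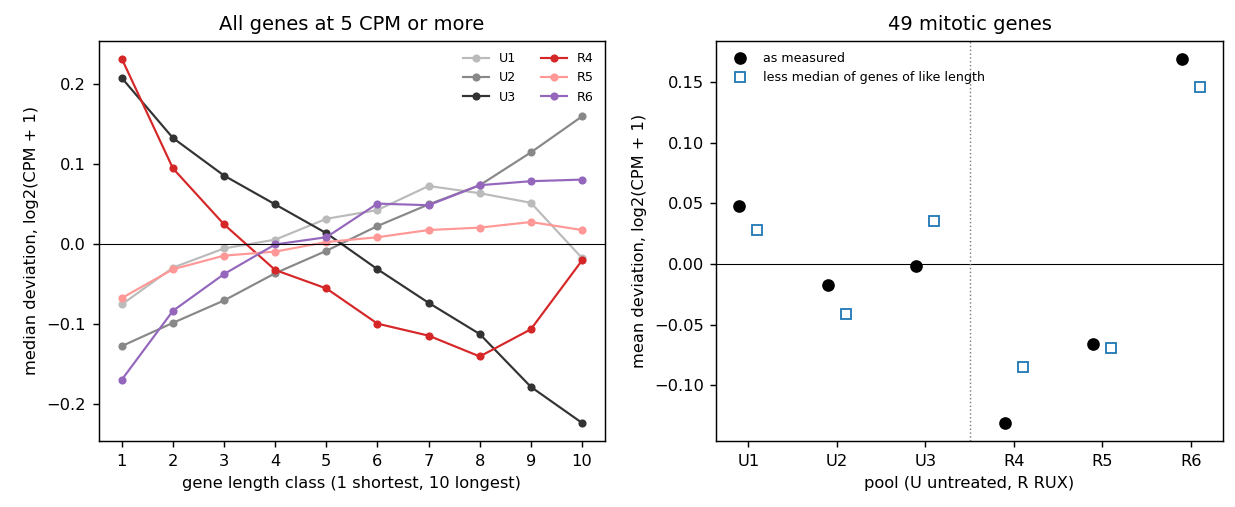
Left, median deviation of log2(CPM + 1) per pool over all tested genes of at least 5 CPM in 10 classes of gene length; right, mean deviation of the 49 mitotic genes per pool as measured (dots) and less the median of genes of like length (squares). Short genes are high in untreated pool 3 and RUX pool 4, and the mitotic value is highest in RUX pool 6 both before (0.17) and after (0.15) the subtraction.

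Mitotic genes outside the list were also examined, 119 in all, from the condensin, centromere, spindle, anaphase, cytokinesis, CDK1-regulator and MuvB groups. Of these 48 lay above and 71 below 0, with a median of −0.03, and 0 had an edgeR adjusted p under 0.05. At an unadjusted p under 0.05 there were 4, all with lower values in RUX pools, where 1.04% of all tested genes were lower and 0.85% higher at that threshold. The RUX pools all lay below the untreated pools for 3 of the 119 (3.25% of all tested genes) and all above them for 1 (2.99%). Bora, an activator of Aurora A, read 57.1, 64 and 57.3 CPM untreated, against 45, 44.1 and 50.4 CPM with RUX, and the groups did not overlap. Its log2 fold change was −0.35 ± 0.14 (SE) with an unadjusted p of 0.0249. Cdc16, a subunit of the anaphase-promoting complex, read 133, 105 and 117 CPM untreated, against 89.5, 93.1 and 99.4 CPM with RUX. These groups did not overlap either, and the log2 fold change was −0.34 ± 0.14 (SE) with an unadjusted p of 0.034. Sept7, a septin of the cleavage furrow, had a log2 fold change of −0.36 and Rbbp4, a histone-binding subunit of MuvB, of −0.36, and by edgeR all 4 had an adjusted p of 1.

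The other genes with the smallest p of their groups went both ways, and none had an unadjusted p under 0.05. Above 0 were Ccnf (0.26), which encodes cyclin F, the spindle motor gene Kifc1 (0.42), the augmin subunit gene Haus8 (0.24), the citron kinase gene Cit (0.33), E2f3 (0.32) and Mad2l1bp (0.27), whose product removes MAD2 from its partners. Below 0 were Oip5 (−0.28), which acts in CENP-A loading, the anaphase-promoting complex gene Anapc4 (−0.24) and the condensin genes Ncapg2 (−0.19) and Smc2 (−0.12). Over pools, the 119 genes were lowest in RUX pool 4 (−0.09) and highest in RUX pool 6 (0.10). S-phase genes, which act in the step before G2, had 14 of 40 above 0 with a median of −0.03, and were lowest in RUX pool 4 (−0.13) and highest in RUX pool 6 (0.10).

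Counts of some members carry an annotation limit, because their exons overlap those of other genes. Overlaps were summed over annotated exon intervals, which can repeat the same bases. Each percentage here is therefore an upper limit of the share of exon length. On the opposite strand, which counting without strand cannot separate, the exons of Kif20a, a midzone kinesin, overlap those of Cdc23 and Brd8. The limits are 85.7% for Cdc23 and 17.6% for Brd8. Opposite-strand overlaps were at most 30.3% for Hjurp with Mroh2a, 14.1% for Nusap1 with Oip5, 13.4% for Ccna2 with Exosc9 and 8.74% for Cdc20 with Elovl1. On the same strand, Hjurp overlaps 6430706D22Rik over at most 43.1% and A730008H23Rik over at most 26.2%. Foxm1 overlaps 4933413G19Rik over at most 2.06%. GENCODE also lists a pseudogene named for each of Ccnb1, Ccnb2 and Kif4, and reads shared with such copies could not be assigned with certainty. The 49 genes lie on 19 chromosomes, 10 of them on chromosome 2.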

How the data were processed

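The SMART-Seq mRNA LP kit was used to make the 6 libraries, per the labels' protocols. STAR (no version named) and mm10 are listed in the submitters' processing notes. The authors deposited raw counts per gene, made from read pairs with featureCounts 2.0.3 without strand, and each gene's exon length in bases, per the file headers. The labels' treatment gave the groups. P-values rest on the spread between pools, not between single animals. The edgeR fit estimates variance partly from all genes, so the p and SE of a gene do not reflect its own spread alone.

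With edgeR 4.0.16 (R 4.3.3), genes were filtered by filterByExpr, scaled by TMM and compared, 3 against 3 pools, with its quasi-likelihood test (two-sided), with Benjamini-Hochberg adjustment over 13411 genes. The procedure was tested on simulated data with changes of 2-fold or more. The members' changes were all smaller, and power at their size was not tested. The SE is the log2 fold change divided by the root of F. CPM uses TMM-scaled library sizes, except for sort antigens. Alternatives were other scalings and filters, robust fitting, DESeq2 1.42.0, limma-voom (limma 3.58.1) and leaving out pools. Pool values were given for the 2 genes of each role with the smallest unadjusted p and for 15 set genes, and mitotic genes outside the list were named as the 2 per group with the smallest p. The members and lists were chosen with earlier results of these data known.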

Additional observations from a re-analysis of the deposited data

How the results depend on the processing

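In all 15 alternatives 0 mitotic genes were called, and the smallest adjusted p of any member was 0.83. Over all genes, 14 were called with no low-count filter and 1 by limma-voom with quality weights, against 0. The median of the 49 log2 fold changes was −0.121 without RUX pool 6 and 0.052 without RUX pool 4, the lowest and highest with 1 pool left out, and 10 and 31 of 49 genes then lay above 0. It was 0.065 without untreated pool 3 and RUX pool 4 together. Of the 23 genes given by the rule, 12 had the opposite sign in some alternative. With 1 pool left out, the log2 fold changes of those that turned ran from −0.029 to 0.142 for Cdk1, −0.03 to 0.177 for Ccna2, −0.254 to 0.052 for Ccnb1, −0.007 to 0.231 for Aurka, −0.103 to 0.094 for Aurkb, −0.121 to 0.069 for Cdc20, −0.027 to 0.492 for Espl1, −0.478 to 0.007 for Kif4, −0.186 to 0.138 for Prc1, −0.112 to 0.112 for Top2a and −0.218 to 0.084 for Foxm1. The others ran from 0.027 to 0.381 for Plk1, −0.475 to −0.124 for Mad2l1, 0.143 to 0.441 for Hjurp, −0.297 to −0.044 for Bub1, 0.046 to 0.209 for Cenpe, 0.109 to 0.304 for Ube2c, −0.34 to −0.025 for Kif11, −0.315 to −0.036 for Hmmr, −0.201 to −0.014 for Tpx2, −0.209 to −0.078 for Kif23, 0.014 to 0.241 for Mki67 and −0.449 to −0.046 for G2e3. Cdc20 and Prc1 were both 0.002 with DESeq2 size factors and in DESeq2, and both 0.001 with no low-count filter. Without untreated pool 3 and RUX pool 4 together, Cdc20 was 0.132, Prc1 0.118, Foxm1 0.046, Kif4 0.016 and Tpx2 0.001. Top2a was −0.043 by limma-voom with quality weights. The cause was not tested. Of 390 values of the other 26 members, 47 had the opposite sign. The per-pool levels moved by less than the SD of pools within a group (0.114, pooled over both groups) under both scalings and the length step. That SD comes from the same levels and was 0.034 for the untreated and 0.158 for the RUX pools, so it is a wide measure. The length step moved RUX pool 4 from −0.131 to −0.085 and untreated pool 3 from −0.002 to 0.035. No paired analysis was possible because the groups share no pool number. Precision is limited by 3 pools a group, and the lowest count of any member in a pool was 241.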
